A study of Homo sapiens with 13 samples.

Results

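The genes described here encode 10 enzymes of serine synthesis and folate-dependent one-carbon metabolism, taken by name from the 56831 genes measured. They are *PHGDH*, *PSAT1* and *PSPH* of the serine synthesis pathway, *SHMT1* and *SHMT2*, which turn serine into glycine, the folate enzymes *MTHFD1*, *MTHFD2*, *MTHFD1L* and *ALDH1L2*, and the thymidylate synthase gene *TYMS*. All 10 were found in the expression tables. RNA-seq was performed on 2 human small cell lung cancer (SCLC) lines, H82 and H146, described as wild type, grown in RPMI1640 medium with serum and antibiotics. Untreated cells (3 H82 and 3 H146 libraries) were compared with cells kept in 100 nM FHD-286 for 14 days with regular renewal of the drug (3 H82 and 4 H146 libraries). FHD-286 inhibits the ATPases SMARCA4 and SMARCA2, the motors of the BAF (SWI/SNF) chromatin remodeling complexes. The comparison asks how RNA levels changed under prolonged inhibition. No drug vehicle is named for the untreated cells, and each line is a single cancer-derived line, so a difference between H82 and H146 is a difference between these lines.

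Serine is built from the glycolytic intermediate 3-phosphoglycerate in successive steps, by the dehydrogenase PHGDH, the aminotransferase PSAT1 and the phosphatase PSPH. SHMT2 in mitochondria and SHMT1 in the cytosol move a carbon from serine onto tetrahydrofolate. In mitochondria MTHFD2 oxidizes that unit, MTHFD1L releases it as formate and ALDH1L2 oxidizes it to carbon dioxide. In the cytosol the trifunctional enzyme MTHFD1 takes formate up again for purine synthesis and for TYMS, which makes the thymine nucleotide used in DNA. The transcription factor ATF4, which is induced by amino acid shortage and by other forms of stress, is known to activate *PHGDH*, *PSAT1*, *SHMT2*, *MTHFD2* and related genes. RPMI1640 supplies serine, glycine and folate.

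Values are in TPM, transcript levels corrected for gene length that sum to 1000000 in each library, and no sequencing depth can be read from them. A fold change is a difference of mean log2(TPM + 1) between FHD-286 and untreated libraries, given with its standard error (SE), and a gene was called at an adjusted p under 0.05 in limma. The median fold change over all genes tested was -0.56 in H82 and 0.25 in H146 on the log2 scale, and rescaling by the median of ratios moved these medians to -0.14 and -0.02. Mitochondrially encoded genes held 22.1% to 24.1% of TPM in untreated and 12.3% to 14.9% in treated H82. They held 7.56% to 8.86% in untreated and 3.82% to 11.4% in treated H146. Genes at 1 TPM or more numbered 21227 to 21772 in untreated and 15554 to 16633 in treated H82, and 17476 to 17965 and 18778 to 19309 in H146. One treated H82 library, replicate 1, stood apart in genes of the ATF4 response. Its *DDIT3* level was 432 TPM against 17.1 and 9.56 in the other treated H82 libraries, and its *MKI67* level, a proliferation marker, was 9.11 against 40.2 and 50.8 TPM. Treated H82 replicate 2 stood apart in others, with *MYCN* at 61.8 TPM against 1.97 and 1.27. For the members, H82 results are given with and without replicate 1, and the effect of leaving out replicate 2 is given with that of the other libraries. In H146, treated replicate 2 stood apart in *DDIT3*, at 264 TPM against a group median of 36.8. The 5 neuroendocrine markers summed to between 610 and 660 TPM in untreated H82 and 178 to 577 in treated H82, and to 1377 to 1679 and 983 to 1244 TPM in H146. In H82 *SYP*, *CHGA* and *NEUROD1* were called lower, *INSM1* higher and *NCAM1* not. In H146 *INSM1*, called lower, made up most of the sums, with means of 1230 TPM untreated and 870 treated. In treated H82 the median and maximum were 33.9 and 296 TPM for *INSM1* and 3.08 and 32.8 TPM for the epithelial marker *EPCAM*. Epithelial markers (4 genes) summed to 1353 to 1377 TPM in untreated H146, to 522 to 589 in treated H146, to 1.49 to 3.16 in untreated H82 and to 8.02 to 63.4 in treated H82, while fibroblast markers (4 genes) summed to 0.912 to 1.84 in untreated and 6.99 to 32.0 TPM in treated H82. The sums of the fibroblast markers were 6.43 to 8.45 and 12.2 to 18.9 TPM in H146. The 4 blood markers stayed at or under 7.10 TPM in sum in each library, with *CD3E* at 0 in all H82 libraries and *HBB* in all treated H146 libraries, and the 2 endothelial markers at or under 2.62 TPM. Their part in the results below was not tested.

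In untreated cells the member with the highest level was *PSAT1* in H82 and *SHMT2* in H146, and *MTHFD2* came next in both lines. Untreated H82 carried most *PSAT1*, at 501 TPM ± 14.1 (SD, n = 3), followed by *MTHFD2* at 252 ± 4.70, *PHGDH* at 128 ± 10.6, *SHMT2* at 111 ± 6.97 and *PSPH* at 99.4 ± 4.85 TPM. Below these came *MTHFD1L* at 89.3 ± 2.09, *MTHFD1* at 62.9 ± 2.93, *TYMS* at 26.3 ± 3.65 and *SHMT1* at 25.8 ± 2.59, and *ALDH1L2* was barely detected at 0.801 ± 0.178 TPM. In that order the libraries of neighboring genes overlapped for *TYMS* and *SHMT1*, and for no other neighbors. Untreated H146 was led by the mitochondrial enzyme gene *SHMT2* at 629 TPM ± 38.8 (SD, n = 3), then *MTHFD2* at 350.2 ± 35.5, *PHGDH* at 242 ± 21.9 and *PSAT1* at 239.9 ± 16.8 TPM, the last pair overlapping. *MTHFD1L* followed at 122 ± 4.88, *TYMS* at 72.9 ± 4.92, *PSPH* at 58.2 ± 3.0 and *SHMT1* at 38.6 ± 1.92 TPM, and *ALDH1L2* at 28.7 ± 7.32 overlapped *MTHFD1* at 28.4 ± 4.38. The lines sit in separate tables and these levels were set side by side without a test.

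**Figure D1:**
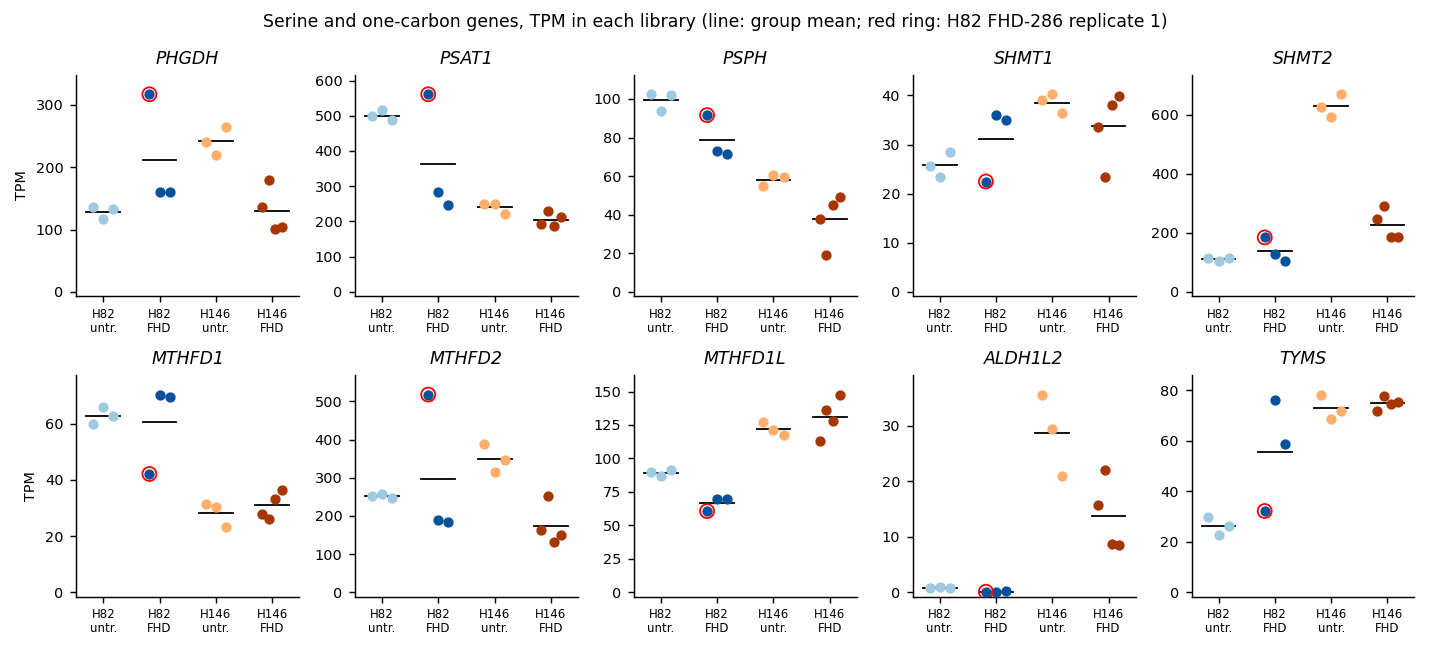
TPM (vertical axes, linear and starting near 0) of each of the 10 genes in the 13 libraries, with 1 point per library, a horizontal line at the group mean and a red ring around the first treated H82 library. *SHMT2*, *MTHFD2* and *PHGDH* of treated H146 sit below all untreated H146 points, and the ringed H82 library lies at 518 TPM for *MTHFD2* while the other treated H82 libraries lie at 190.5 and 185.

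In H146 treated with FHD-286, 3 genes of the mitochondrial arm and the gene for the first enzyme of serine synthesis were lower. *SHMT2*, *ALDH1L2*, *MTHFD2* and *PHGDH* fell, 4 of the 10 members, and none rose, whereas 15.5% of all 19585 genes tested were called lower and 32.5% higher. The members' median fold change was -0.46 against 0.25 over all genes tested. The estimates were uneven within the pathway, and those of *MTHFD1L*, *MTHFD1* and *TYMS* were 0.10, 0.12 and 0.04, which did not pass the test.

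*SHMT2* (chr12:57229573-57234935, plus strand, hg38), the mitochondrial serine hydroxymethyltransferase, had the largest fold change of the 10 in this line. Its levels were 626, 592 and 669 TPM in the untreated H146 libraries and 246, 291, 186 and 186 TPM in the treated ones. All treated libraries lay below all untreated ones. The mean fell to 0.361 of its untreated value, a log2 fold change of -1.49 (SE 0.17, limma adjusted p = 0.00034), and the 95% interval ran from -1.89 to -1.09.

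*MTHFD2* (chr2:74186172-74217565, plus strand), the mitochondrial methylenetetrahydrofolate dehydrogenase, stood at 387, 316 and 347 TPM without the drug and at 164, 253, 132 and 149 TPM with it. Again the groups did not overlap, and treated replicate 2 was the highest of its group. The log2 fold change was -1.04 (SE 0.21, limma adjusted p = 0.00475). *ALDH1L2* (chr12:105019784-105107643, minus strand), which oxidizes mitochondrial formyl-folate, went from 35.6, 29.4 and 21.0 TPM to 15.7, 22.1, 8.71 and 8.57 TPM. Here treated replicate 2 overlapped the untreated libraries. Its log2 fold change of -1.08 (SE 0.33) reached a limma adjusted p of 0.0272, but the call was lost without untreated replicate 1 (adjusted p = 0.102), untreated replicate 2 (0.0777), treated replicate 3 (0.0605) or treated replicate 4 (0.0548), and also without the filter on low values (0.0642). *MTHFD1L* (chr6:150865679-151101887, plus strand), the mitochondrial formate-releasing synthetase, was at 127, 121 and 118 TPM in untreated and 113, 136, 128 and 148 TPM in treated H146, with overlapping groups and a log2 fold change of 0.10 (SE 0.12, limma adjusted p = 0.528).

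Of the serine synthesis genes, *PHGDH* (chr1:119648411-119744218, plus strand) fell. Its TPM values were 240.0, 220.5 and 264 without and 137, 180.2, 101 and 104 with FHD-286. The groups were separate, and the log2 fold change was -0.92 (SE 0.20, limma adjusted p = 0.00691). *PSPH* (chr7:56011051-56051604, minus strand) had non-overlapping groups too, at 54.8, 60.4 and 59.4 TPM and 37.7, 19.3, 45.3 and 49.0 TPM. Its log2 fold change of -0.69 (SE 0.29) did not pass the test with all libraries (limma adjusted p = 0.0775), and without treated replicate 2, the lowest, it was -0.40 with an adjusted p of 0.0245. The call was also made without treated replicate 4 (-0.84, limma adjusted p = 0.0442). *PSAT1* (chr9:78297125-78330093, plus strand) was the least changed of the 3, with 249.7, 249.5 and 221 TPM against 192, 229, 187 and 212 TPM and overlapping groups. Its log2 fold change was -0.23 (SE 0.12, limma adjusted p = 0.133).

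*SHMT1*, *MTHFD1* and *TYMS* did not pass the test in H146 with values as deposited. *SHMT1* (chr17:18327860-18363563, minus strand) was at 39.0, 40.2 and 36.5 TPM untreated and at 33.6, 23.3, 38.0 and 39.9 TPM treated, a log2 fold change of -0.22 (SE 0.19, limma adjusted p = 0.364). *MTHFD1* (chr14:64388031-64463457, plus strand) had a log2 fold change of 0.12 (SE 0.16, limma adjusted p = 0.576), with levels between 23.3 and 31.4 TPM untreated and between 26.0 and 36.4 TPM treated. *TYMS* (chr18:657653-673578, plus strand) was at 78.3, 68.6 and 71.9 TPM and at 71.8, 77.6, 74.6 and 75.5 TPM. The 95% interval of its log2 fold change ran from -0.19 to 0.27. Groups were separate, with treated lower, for 4 of the 10 members against 17.3% of all genes tested in H146, and with treated higher for 0 of 10 against 35.7%.

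The H146 calls of *SHMT2*, *MTHFD2* and *PHGDH* held in each of the 17 fits run, with fold changes between -1.81 and -1.40, -1.36 and -0.93, and -1.24 and -0.81. Under the median of ratios, where 25.1% of all genes were called lower and 21.3% higher, 7 of the 10 members were called lower, with *PSPH* at -1.0, *PSAT1* at -0.55 and *SHMT1* at -0.53 added, and the estimates of *MTHFD1*, *MTHFD1L* and *TYMS* turned to -0.19, -0.22 and -0.28 without a call.

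**Figure D2:**
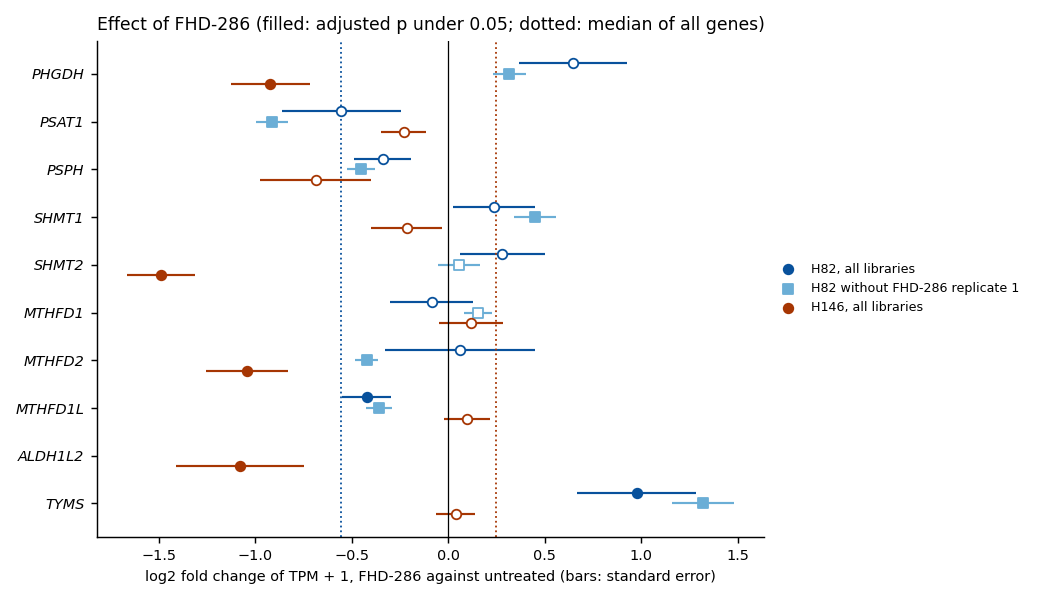
Log2 fold change of TPM + 1, FHD-286 against untreated (horizontal axis), for each gene in H82 (circles), in H82 without treated replicate 1 (squares) and in H146, with bars for the standard error, filled symbols for an adjusted p under 0.05 and dotted lines at the median of all genes. *SHMT2* of H146 lies farthest to the left at -1.49, and *TYMS* of H82 without that library farthest to the right at 1.32.

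In H82 members were called in both directions. With all libraries, *TYMS* rose and *MTHFD1L* fell, 1 gene in each direction of 9 tested, where 13.1% of 19770 genes tested were called higher and 45.5% lower. The calls depended on the libraries used. Without treated replicate 1, *TYMS*, *SHMT1* and *PHGDH* were called higher and *PSAT1*, *PSPH*, *MTHFD2* and *MTHFD1L* lower, 3 and 4 of 9 members, against 18.4% and 52.2% of all genes in the same fit. The members' median fold change was 0.06 in both fits, while that of all genes tested was -0.56 in both. The share of members called lower without that library lay under the share of all genes. Without any one of the other 5 H82 libraries, 0 or 1 members were called lower and 0 higher, beside 26.2% to 43.6% and 9.03% to 10.3% of all genes in those fits.

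*TYMS*, the thymidylate synthase, gave the largest fold change in H82. It was at 30.0, 22.7 and 26.3 TPM untreated and at 32.2, 76.2 and 58.6 TPM treated. Each treated library exceeded the untreated ones, though replicate 1 by little. The log2 fold change was 0.98 (SE 0.31, limma adjusted p = 0.0299) with all libraries and 1.32 (SE 0.16, adjusted p = 0.000841) without treated replicate 1. With any other single H82 library left out the adjusted p lay between 0.0608 and 0.111. The gene *ENOSF1*, which overlaps *TYMS* on the opposite strand, had between 4.53 and 6.67 TPM in H82 and between 12.3 and 26.3 TPM in H146, and the sources used here do not say whether counting kept the strands apart.

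The serine synthesis genes of H82 went in different directions. *PHGDH* was at 136, 116 and 132 TPM untreated and at 317, 160.1 and 159.6 TPM treated, all treated libraries above all untreated ones. Its log2 fold change was 0.64 (SE 0.28, limma adjusted p = 0.0859), and without replicate 1 it was 0.32 (SE 0.09, adjusted p = 0.0177). *PSAT1* was at 498, 516 and 488 TPM and then at 561, 283 and 248 TPM. Replicate 1 lay above and the other treated libraries lay below the untreated range. Accordingly its log2 fold change was -0.55 (SE 0.31, limma adjusted p = 0.161) with all libraries and -0.91 (SE 0.08, adjusted p = 0.000315) without replicate 1. *PSPH* was at 102, 93.8 and 102 TPM untreated and at 91.6, 73.1 and 71.5 TPM treated, with separate groups. Its log2 fold change was -0.34 (SE 0.15, limma adjusted p = 0.0842) and, without replicate 1, -0.45 (SE 0.07, adjusted p = 0.00235).

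Among the mitochondrial enzymes of H82, *MTHFD2* changed sign with 1 library. Its values were 252, 257 and 248 TPM untreated and 518, 190.5 and 185 TPM treated. The log2 fold change was 0.06 (SE 0.39, limma adjusted p = 0.902), and it became -0.42 (SE 0.06, adjusted p = 0.00153) without replicate 1. *SHMT2* was at 113, 103 and 116 TPM and at 184, 128 and 104 TPM, with overlapping groups, and it was called in neither fit (limma adjusted p = 0.308 and 0.669, fold changes 0.28 and 0.06). *MTHFD1L* fell in all 3 treated libraries, from 89.9, 87.0 and 91.1 TPM to 60.6, 69.4 and 69.4 TPM. Its log2 fold change was -0.42 (SE 0.13, limma adjusted p = 0.0238), and -0.36 (SE 0.07, adjusted p = 0.00365) without replicate 1, but it lay above the median of all genes by 0.13, and under the median of ratios it was 0.06. Leaving out any untreated library or treated replicate 2 raised the adjusted p of *MTHFD1L* to between 0.0533 and 0.136. *ALDH1L2* was under the filter of 1 TPM in 3 libraries and was tested alone. It went from 0.699, 1.01 and 0.698 TPM to 0.0843, 0.0489 and 0.240 TPM, with separate groups and a log2 fold change of -0.68 (exact two-sided permutation test, p = 0.1, n = 3 and 3), which is the smallest p that 3 against 3 libraries allow.

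*SHMT1* and *MTHFD1* of H82 were higher in treated replicates 2 and 3 than in any untreated library and lowest in treated replicate 1. *SHMT1* was at 25.7, 23.3 and 28.5 TPM untreated and at 22.5, 36.1 and 35.0 TPM treated. *MTHFD1* was at 60, 65.8 and 62.8 TPM untreated and at 42.1, 70.4 and 69.5 TPM treated. Neither passed the test with all libraries (limma adjusted p = 0.366 and 0.751). Without replicate 1 the log2 fold change of *SHMT1* was 0.45 (SE 0.11, adjusted p = 0.0112) and that of *MTHFD1* 0.15 (SE 0.07, adjusted p = 0.109).

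Across the tested members of H82 the groups were separate for 2 lower and 2 higher, against 51.4% and 16.4% of all genes tested. Under the median of ratios, where 32.9% of all genes were lower and 24.2% higher, *TYMS* (1.46), *PHGDH* (1.13), *SHMT2* (0.77) and *SHMT1* (0.71) were called higher and no member lower, and *MTHFD1L*, *MTHFD1* and *PSPH* changed sign to 0.06, 0.40 and 0.15.

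The effect of FHD-286 differed between the lines for *SHMT2*, *PHGDH*, *TYMS* and *MTHFD1L*. The difference was taken as the H82 fold change minus the H146 fold change, over all 13 libraries, and 13.3% of 24374 genes were called with a positive and 46% with a negative difference. *SHMT2* differed by 1.77 (SE 0.29, limma adjusted p = 0.000274) and *PHGDH* by 1.57 (SE 0.37, adjusted p = 0.00289), and both were called in each of the 23 fits run, at 1.54 to 2.58 and 1.24 to 2.38. *TYMS* differed by 0.94 (SE 0.32, limma adjusted p = 0.0249), and by 1.28 (adjusted p = 0.000136) without H82 treated replicate 1. Its call was lost without H82 untreated replicate 2, H82 treated replicate 2 or 3, or H146 untreated replicate 1, where the adjusted p lay between 0.0552 and 0.0630. *MTHFD1L* differed by -0.52 (SE 0.16, limma adjusted p = 0.0152), which turned to 0.29 without a call under the median of ratios. This difference lay above the median difference of all genes, -0.75. With a replicate block neither *TYMS* nor *MTHFD1L* was called. *MTHFD2* differed by 1.11 (SE 0.46) and missed the threshold (limma adjusted p = 0.0566). It was 0.62 (adjusted p = 0.0762) without H82 treated replicate 1, and it passed without H82 treated replicate 2 (1.34, adjusted p = 0.0313) or 3 (1.36, 0.0268) or H146 treated replicate 2 (1.30, 0.0243). *PSAT1*, at -0.32 (limma adjusted p = 0.408) with all libraries, was at -0.68 (adjusted p = 0.00242) without H82 treated replicate 1. *SHMT1* went from 0.45 (limma adjusted p = 0.197) to 0.67 (0.0385) when that library was left out.

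Ratios of 2 members within a library do not depend on how libraries are scaled, and they show where the members changed unequally. These pairs were chosen after the values had been seen. The ratio of *PSAT1* to *PHGDH* TPM was 3.65, 4.43 and 3.69 in untreated H82 and 1.77, 1.77 and 1.55 in treated H82. All treated libraries, replicate 1 included, lay below the untreated ones, a log2 change of -1.21 (exact two-sided permutation test, p = 0.1, the smallest that 3 against 3 allow). In H146 the same ratio was 1.04, 1.13 and 0.835 untreated and 1.40, 1.27, 1.85 and 2.05 treated. It moved the other way there, by 0.70 (exact two-sided permutation test, p = 0.0571, the smallest that 3 against 4 allow). In both lines the treated ratios lay between 1.27 and 2.05, while the untreated ratios lay between 3.65 and 4.43 in H82 and between 0.835 and 1.13 in H146.

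The mitochondrial over the cytosolic enzyme also shifted in H146. *SHMT2* over *SHMT1* was 16.1, 14.7 and 18.3 in untreated H146 and 7.31, 12.5, 4.89 and 4.67 in treated H146, a log2 change of -1.27 (exact two-sided permutation test, p = 0.0571). *MTHFD2* over *MTHFD1* went from 12.3, 10.4 and 14.9 to 5.87, 9.72, 3.95 and 4.08 there, a log2 change of -1.17 (p = 0.0571 in the same exact permutation test). In H82 treated replicate 1 went up and the others down: *SHMT2* over *SHMT1* was 4.42, 4.42 and 4.08 untreated and 8.20, 3.54 and 2.96 treated, and *MTHFD2* over *MTHFD1* was 4.20, 3.91 and 3.95 untreated and 12.3, 2.70 and 2.66 treated. The ratio of *MTHFD1L* to *MTHFD1* overlapped between groups in both lines, with log2 changes of -0.34 in H82 and -0.03 in H146 (exact two-sided permutation tests, p = 0.2 and 0.914).

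**Figure D3:**
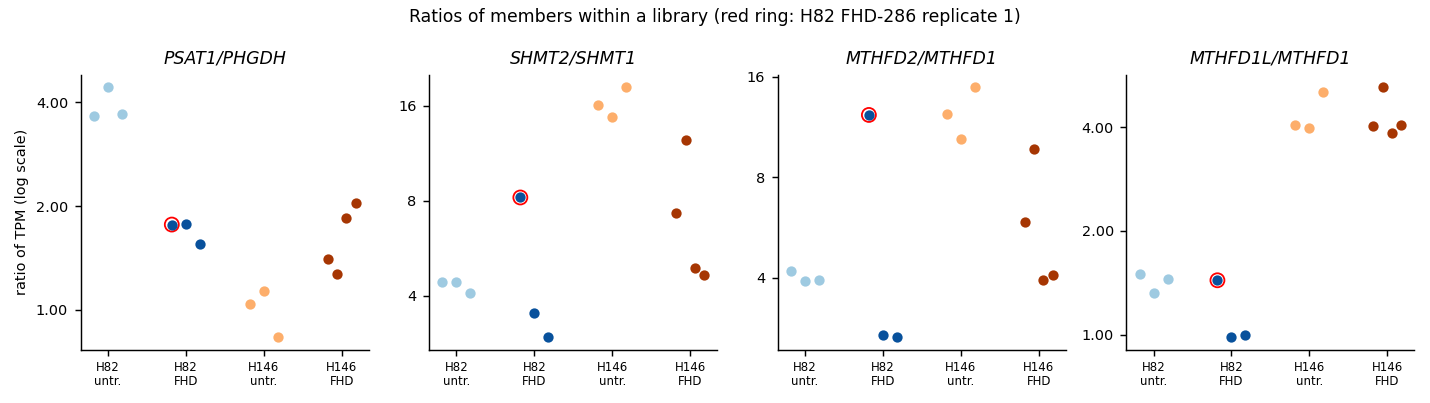
Ratio of the TPM of 2 members within each library (vertical axes, log scale) by group, with 1 point per library and a red ring around the first treated H82 library. For *PSAT1* over *PHGDH* the treated libraries of both lines lie between 1.27 and 2.05, and for the mitochondrial over cytosolic pairs the ringed library stands above the other treated H82 libraries.

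Within each treated group, the library highest in *PHGDH*, *MTHFD2* and *SHMT2* was also the highest in *ATF4* and in *ASNS* and *TRIB3*, known targets of ATF4. Against untreated cells the genes did not always go together, since *PHGDH* of H82 treated replicates 2 and 3 lay above and *ATF4* below the untreated libraries. *ATF4* was at 758, 733 and 759 TPM in untreated H82 and at 1433, 436 and 423 TPM in treated H82. *TRIB3*, a pseudokinase induced by ATF4, was at 67.0, 50.5 and 61.4 TPM and at 276, 32.0 and 27.6 TPM, so that replicate 1 lay above and the other treated libraries below the untreated ones. In H146 *ATF4* was at 1748, 1634 and 1660 TPM untreated and at 754, 1188, 704 and 716 TPM treated, and *ASNS*, the asparagine synthetase, at 68.6, 61.4 and 40.7 TPM and at 28.9, 89.6, 10.8 and 8.65 TPM. The highest treated H146 library in these genes, replicate 2, was also the highest of its group in *PHGDH*, *MTHFD2*, *SHMT2*, *PSAT1* and *ALDH1L2*, and the lowest in *PSPH*, *SHMT1* and *MTHFD1*. Of the 7 genes in the list (*ATF4*, *ASNS*, *TRIB3*, *CHAC1*, *DDIT3*, *SESN2* and *SLC7A11*) 4 were called lower in H146 and none higher, beside 15.5% lower and 32.5% higher of all genes. *CHAC1* went the other way there, at 0.66 with overlapping groups and without a call (limma adjusted p = 0.0551). The largest fall was that of *DDIT3*, at -2.83 (SE 0.69, limma adjusted p = 0.0103). Against the untreated mean, *DDIT3* was at -0.61 in treated H146 replicate 2 and at -3.21, -3.67 and -3.82 in replicates 1, 3 and 4 (log2 scale). In H82 none of the 7 genes was called with all libraries, and 6 were called lower without treated replicate 1, where 52.2% of all genes were lower. The part of this list in the members' changes was not tested.

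**Figure D4:**
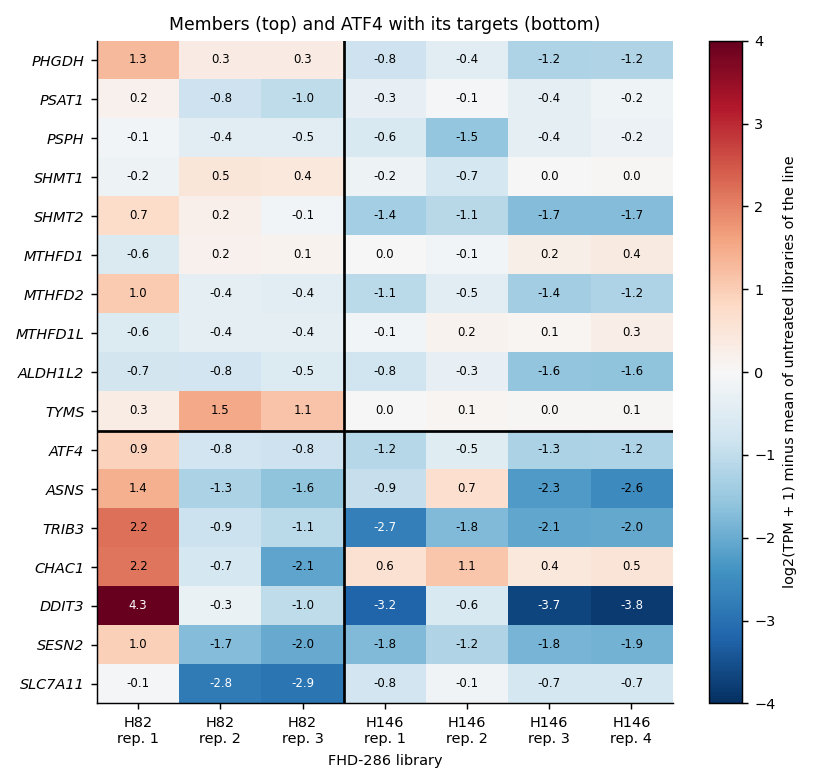
Log2(TPM + 1) of each treated library minus the mean of the untreated libraries of its line (color, with the value in each cell) for the 10 members above the line and *ATF4* with 6 of its known targets below it. H82 replicate 1 is the column in which *ATF4*, *DDIT3*, *PHGDH* and *MTHFD2* are all above the untreated mean.

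Genes of S phase and proliferation (12 genes) gave 1 call in each direction in each line. Of all genes, 45.5% were called lower and 13.1% higher in H82, and 15.5% and 32.5% in H146. In H82 *TK1*, the cytosolic thymidine kinase, rose by 0.70 (limma adjusted p = 0.0261) and *MKI67* fell by 2.23 (adjusted p = 0.0131), and the other 10 were not called. Without treated replicate 1, 8 of the 12 genes were called higher and 2 lower, beside 18.4% and 52.2% of all genes. In H146 *MCM5* rose by 0.52 (limma adjusted p = 0.0129) and *TK1* fell by 0.86 (adjusted p = 0.00199). These counts moved with the scaling. The median of ratios gave 1 lower and 6 higher in H82, beside 32.9% and 24.2% of all genes. In H146 it gave 6 lower and 0 higher, beside 25.1% and 21.3%, and *MCM5* was not called (0.21, limma adjusted p = 0.24). Quantile normalization gave 4 lower and 2 higher in H82, beside 28.1% and 25.6%, and 2 and 2 in H146, beside 21.0% and 23.7%. *TYMS* too is a gene of S phase, and its H82 fold change of 0.98 stands beside their median of 0.13. The 12 estimates ran from -2.23 for *MKI67* to 0.70 for *TK1*, with *RRM1* at 0.59. Their median was 0.39 without treated replicate 1, 0.62 under the median of ratios and -0.17 under quantile normalization. The *TYMS* estimate was larger as well in the first 2 of these settings, as given above. In the MYC family (3 genes), *MYCL* fell by 0.64 in H82 (limma adjusted p = 0.0399) and *MYCN* fell by 1.25 in H146 (adjusted p = 0.00135). The *MYCL* call was lost with quantile normalization (-0.34, limma adjusted p = 0.283) and with the median of ratios (-0.16, 0.581). It was made without treated replicate 1 (-0.87, 0.00136). *MYC* was not called in H82 with all libraries (0.59, limma adjusted p = 0.106), with separate groups and treated higher. Its mean there went from 1399 to 2158 TPM. It was called higher without treated replicate 1 (0.83, limma adjusted p = 0.00114) and with the median of ratios (1.08, 0.0107). Quantile normalization gave no call (0.07, limma adjusted p = 0.859). In H146 *MYC* was not called (-0.18, limma adjusted p = 0.436) but fell under the median of ratios (-0.50, 0.0297).

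The start regions are shown for *PHGDH* and *MTHFD2*, which fell together in H146, for *PSAT1*, whose ratio to *PHGDH* moved in opposite directions in the lines, and for *MTHFD1L* and *MTHFD1*, which hold the other motifs searched. RefSeq promoter windows (GRCh38.p14, 250 bases before to 50 after the start) were at hand for 7 members, with 4 windows for *MTHFD1L* and 1 for each of *PHGDH*, *PSAT1*, *SHMT1*, *MTHFD1*, *MTHFD2* and *TYMS*. *PSPH*, *SHMT2* and *ALDH1L2* are named without a window. Sequences are printed 5′ to 3′ on the plus strand, which is the coding strand of these genes, with CCAAT, the core of the element bound by NF-Y, CACGTG, the E-box bound by MYC and MAX, and TGATGNAA, a core of the element bound by ATF4 with C/EBP partners, in capitals. The *PSAT1* stretch (chr9:78296875-78297124) ends at the annotated gene start and overlaps no annotated exon.
PSAT1: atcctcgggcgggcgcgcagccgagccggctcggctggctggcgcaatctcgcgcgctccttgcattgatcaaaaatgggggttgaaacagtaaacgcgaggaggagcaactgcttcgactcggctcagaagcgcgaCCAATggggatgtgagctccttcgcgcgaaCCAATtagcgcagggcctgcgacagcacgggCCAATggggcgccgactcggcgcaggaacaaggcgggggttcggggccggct
The *MTHFD2* stretch (chr2:74198365-74198608) lies within the annotated span of the gene, before the exon at this start, and overlaps an exon of a long noncoding RNA on the opposite strand. The *PHGDH* stretch (chr1:119711851-119711880) lies in an annotated 5′ exon of some transcripts and is kept to the neighborhood of its CCAAT.
MTHFD2: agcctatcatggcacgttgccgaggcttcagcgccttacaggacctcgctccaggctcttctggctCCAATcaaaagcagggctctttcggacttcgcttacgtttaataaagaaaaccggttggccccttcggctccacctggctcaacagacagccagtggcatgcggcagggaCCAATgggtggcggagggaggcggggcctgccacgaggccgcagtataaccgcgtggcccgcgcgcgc
PHGDH: gagtatttccgtCCAATcaaaaggagactg
The *MTHFD1L* stretch (chr6:150866346-150866375) lies in an annotated exon of a transcript that starts upstream, and the *MTHFD1* stretch (chr14:64388326-64388355) in an annotated 5′ exon.
MTHFD1L: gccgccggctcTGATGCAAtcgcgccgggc
MTHFD1: ccagtccctaagCACGTGggttgggttgtc

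Searched on both strands, CCAAT was found in the windows of 6 of the 7 members (*PHGDH*, *PSAT1*, *SHMT1*, *MTHFD1*, *MTHFD2* and *MTHFD1L*), and 39.7% of 27305 genes with a window hold it. *PSAT1* held it at -113, -83 and -52, *MTHFD2* at -184 and -74 and *PHGDH* at -71, counted from the annotated start. A run of 12 bases, tccaatcaaaag, was common to the *PHGDH* and *MTHFD2* windows, and it was found in the windows of 6 genes of 27305. CACGTG was found for *MTHFD1* and *MTHFD1L*, against 8.77% of genes, and TGATGNAA for *MTHFD1L* alone of the 7, against 4.46% of genes. The matches to the 3 motifs did not overlap each other. These are matches of letters, chosen after the sequences had been seen.

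The wider pathway held 40 further genes, of which 35 were tested in H82 and 33 in H146. In H82, 10 fell and 6 rose, 28.6% and 17.1% of those tested, with a median of -0.27, beside 45.5% and 13.1% of all genes. In H146, 5 fell and 16 rose, 15.2% and 48.5%, with a median of 0.39, beside 15.5% and 32.5% of all genes. Without treated replicate 1 the H82 counts were 14 lower and 10 higher of 35, beside 52.2% and 18.4%. Under the median of ratios they were 6 lower and 11 higher in H82, beside 32.9% and 24.2%, and 5 lower and 10 higher in H146, beside 25.1% and 21.3%. The genes of the list named below as called in H82 were called in the same direction without treated replicate 1. The list was fixed by function and, like the members, with earlier results of these data known.

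A folate receptor gene fell in each line. *FOLR1*, a folate receptor, had the largest fall of the list in H82, from 14.2, 13.5 and 11.3 TPM to 0.797, 1.18 and 0.232 TPM, a log2 fold change of -3.05 (SE 0.26, limma adjusted p = 0.000219). *FOLR2*, a receptor of the same family, had the largest fall in H146, from 12.2, 13.9 and 16.5 TPM to 0.310, 0.0752, 0.758 and 0.212 TPM, at -3.52 (SE 0.21, limma adjusted p = 1.56e-05). *FOLR2* was listed at 0 in untreated H82, and *FOLR1* of H146 was not called (-0.30, limma adjusted p = 0.583). In H82 *FPGS* and *GGH*, which add and remove the glutamate tail that retains folate in the cell, rose and *SLC25A32*, the mitochondrial folate carrier, fell. The *SLC25A32* call was lost with quantile normalization (-0.36, limma adjusted p = 0.117) and with the median of ratios (-0.16, 0.506). In H146 *SLC19A1*, the reduced folate carrier, was called higher at 1.19 (limma adjusted p = 0.0473) with overlapping groups, and was not called under the median of ratios (adjusted p = 0.0905) or quantile normalization (0.11).

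*GLDC*, the glycine decarboxylase of the mitochondrial glycine cleavage system, gave the largest rise of the list in H82, from 12.9, 13.1 and 13.1 TPM to 27.1, 48.0 and 55.0 TPM (log2 fold change 1.60, SE 0.26, limma adjusted p = 0.00207). It rose in H146 as well, from 9.93, 11.8 and 9.06 TPM to 22.3, 15.7, 24.0 and 25.2 TPM (1.0, SE 0.19, adjusted p = 0.0031). The groups were separate in both lines, and the difference between the lines did not pass the test (0.60, limma adjusted p = 0.136) with all libraries as deposited. It passed without H82 treated replicate 1 (0.90, limma adjusted p = 0.00774), and so it did with quantile normalization (1.23, 0.00133) and with the median of ratios (1.37, 0.00148). No other gene of the cleavage system was called in either line. *DLD* was at -0.27 in H82 and -0.05 in H146 (limma adjusted p = 0.334 and 0.866). *GCSH* was at -0.55 in H82 (limma adjusted p = 0.0987), with separate groups, and under the filter in H146. *AMT* was under the filter in both lines. *GART*, a user of formyl-folate in purine synthesis, was the other gene of the list besides *MTFMT*, the mitochondrial formyltransferase for initiator tRNA, that rose in both lines.

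Among serine and glycine carriers (6 genes), *SFXN3*, *SLC6A9* and *SLC1A4* fell in H82 and none rose, beside 45.5% lower and 13.1% higher of all genes. The share of carriers lower in H82, 50%, and their median of -0.63 lay near those of all genes (median -0.56). In H146 *SLC1A5*, *SFXN3* and *SLC1A4* fell and *SFXN2* and *SLC6A9* rose, beside 15.5% lower and 32.5% higher of all genes. The H82 call of *SLC1A4* was lost under the median of ratios and quantile normalization (limma adjusted p = 0.247 and 0.321). *SFXN2*, of the sideroflexin family of mitochondrial carriers, gave the largest rise of the list in H146, from 2.46, 2.22 and 2.16 TPM to 7.06, 3.75, 18.4 and 16.7 TPM (log2 fold change 1.71, SE 0.46, limma adjusted p = 0.0156). *SLC6A9*, the glycine transporter GLYT1, went opposite ways, at -1.52 (adjusted p = 0.000691) in H82 and 0.44 (adjusted p = 0.0473) in H146 by limma. The H146 call was lost with quantile normalization (0.17, limma adjusted p = 0.293) and with the median of ratios (0.15, 0.387). The difference of -1.96 between the lines passed the test (limma adjusted p = 2.62e-05), also under both of these scalings (adjusted p = 0.000765 and 0.000736).

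The methionine cycle takes its methyl group from the folate cycle. All 6 of its tested genes rose in H146 (*MAT2A*, *MTR*, *MTRR*, *GNMT*, *MAT2B* and *AHCY*), beside 32.5% of all genes. Under the median of ratios 3 of the 6 did so, beside 21.3% of all genes, and under quantile normalization 5, beside 23.7%. In H82 *MAT2A* and *GNMT* fell and none rose, beside 45.5% lower and 13.1% higher of all genes. Under the median of ratios 1 fell and 2 rose there, beside 32.9% and 24.2%. With values as deposited 5 of the 6 differed between the lines, all with a negative difference, beside 46% of all genes. The median difference of all genes was -0.75. *MAT2B*, at -0.67, lay above it and the other called genes of the cycle below it. Under the median of ratios 3 of the 6 had a called negative and 1 a called positive difference, beside 30.8% and 25.5% of all genes. *MAT2A*, which makes S-adenosylmethionine and was singled out after its values had been seen, went from 68.5, 90.6 and 52.6 TPM to 254, 201, 237 and 206 TPM in H146 (log2 fold change 1.68, SE 0.19, limma adjusted p = 0.000262). In H82 it went from 581, 617 and 582 TPM to 286, 204 and 276 TPM (-1.23, SE 0.18, adjusted p = 0.00129). The treated levels of the lines overlapped, after untreated levels that did not.

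Among other folate enzymes, *MTHFD2L*, a mitochondrial relative of *MTHFD2*, fell in H82 and rose in H146. It was at 6.17, 8.03 and 6.07 TPM and then 2.41, 2.6 and 2.64 TPM in H82 (log2 fold change -1.12, limma adjusted p = 0.00244), and at 1.60, 1.49 and 1.32 TPM and then 2.51, 2.45, 3.16 and 3.11 TPM in H146 (0.62, adjusted p = 0.0151). The groups were separate in both lines, and the effects differed by -1.74 (limma adjusted p = 4.39e-05). Under quantile normalization none of these calls was made (limma adjusted p = 0.486 in H82, 0.0979 in H146 and 0.0796 for the difference), and under the median of ratios the H146 call was lost (0.0509). *ALDH1L1*, the cytosolic counterpart of *ALDH1L2*, fell in H146 as *ALDH1L2* did, by 1.02 in log2 units (limma adjusted p = 0.00314), and was under the filter in H82. Of the transsulfuration genes *CBS* and *CTH*, which draw on serine to make cysteine, neither was called in H82 with all libraries. Without treated replicate 1 both were called lower there, *CBS* at -0.72 (limma adjusted p = 0.0252) and *CTH* at -1.88 (6.92e-05), and both differed between the lines (adjusted p = 0.0348 and 3.87e-05). In H146 *CTH* was not called and *CBS* was under the filter. *SRR*, the serine racemase, fell by 1.65 in H82 (limma adjusted p = 0.000305) and rose by 0.87 in H146 (adjusted p = 0.00529).

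**Figure D5:**
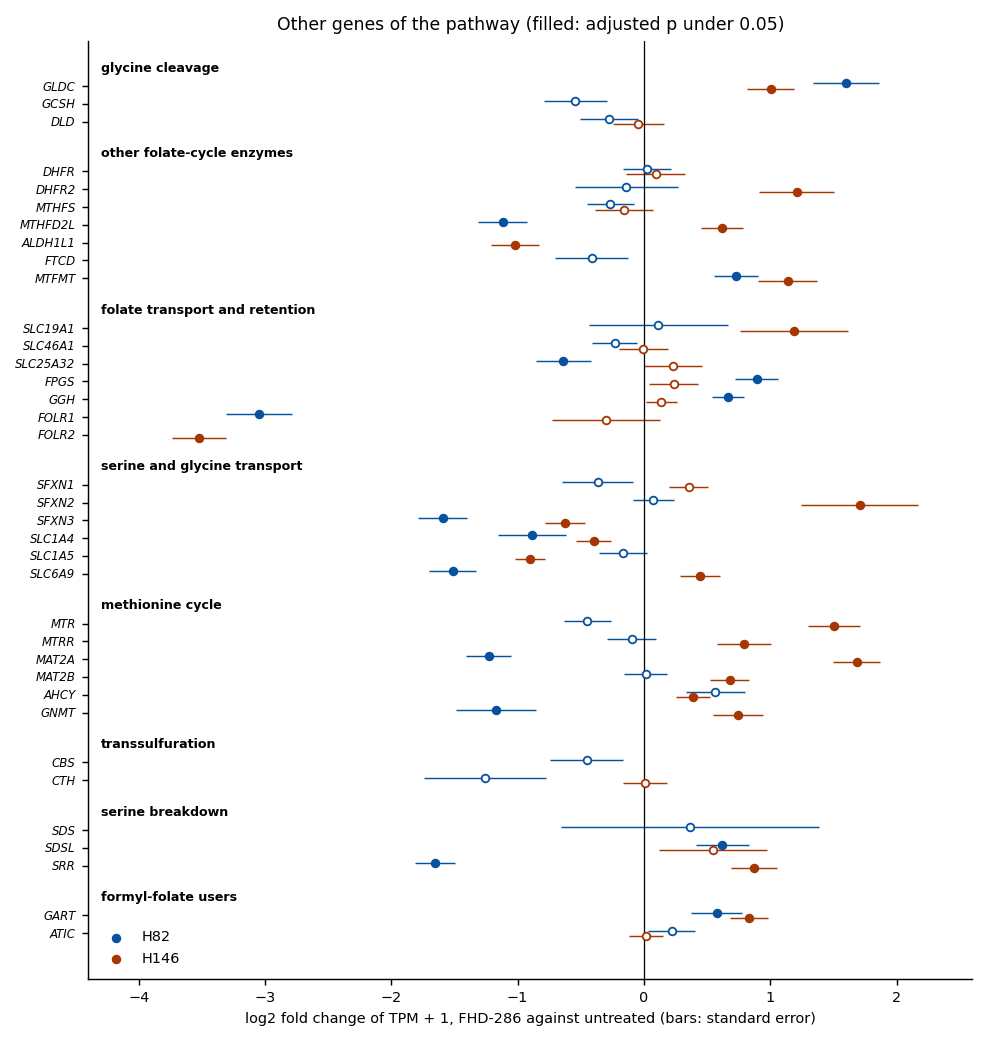
Log2 fold change of TPM + 1, FHD-286 against untreated (horizontal axis), of the other tested pathway genes by role, 1 gene left out, with H82 and H146 in separate colors, bars for the standard error and filled points for an adjusted p under 0.05. *FOLR1* of H82 at -3.05 and *FOLR2* of H146 at -3.52 lie farthest to the left, and the 6 methionine cycle genes of H146 all lie to the right of 0.

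The genes whose log2(TPM + 1), centered within each line, ran closest to a member over the 13 libraries were found among 15659 genes tested in both lines. For *PHGDH* these were *NOA1*, *RPS6* and *RBCK1*, at root mean square differences of 0.12, 0.12 and 0.13. For *SHMT2* they were *PSME1*, *CCDC28A* and *ACADS*, at 0.11, 0.15 and 0.15. For *TYMS* they were *PPP2R1A*, *PDCD5* and *CFL1*, at 0.10, 0.11 and 0.12. As an example of the likeness, mean *PSME1* went from 29.9 to 38.5 TPM in H82 and from 115 to 38.8 TPM in H146. All points of these comparisons share the same 13 libraries.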

How the data were processed

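Total RNA of H82 and H146 cells was sequenced at a service provider, and per the labels and the study's methods reads were trimmed with Trim Galore 0.4.4, mapped to hg38 and counted per gene with STAR and GENCODE 28. The deposited tables hold TPM made by the authors from those counts, 1 table per line and 13 libraries in all, with no column of another sample. How gene length was taken and whether counting used strand are not given in the sources used here. The study used DESeq2 on its counts, which were not used here, and TPM values keep no depth.

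TPM values were put on a log2 scale with a pseudocount of 1, which understates changes of low genes. Genes at 1 TPM or more in at least 3 libraries were fitted with limma 3.58.1 (R 4.3.3; moderated variances with a trend) within each line, and over all 13 libraries for the difference between lines, with p-values adjusted by Benjamini and Hochberg's method across the tested genes and called under 0.05. A member under the filter was tested by an exact permutation test (scipy 1.17.1). The fits were tested on simulated data first. Positions are those of GENCODE 44 on hg38. Other pseudocounts, filters, scalings (median of ratios, quantile normalization), variance models, thresholds, a replicate block and each library left out were also tried. Named were all members, the pathway or context gene with the largest rise and fall in each line, and the 3 genes closest to *PHGDH*, *SHMT2* and *TYMS*. Further genes were named after their values had been seen. *TYMSOS* and *PSPHP1*, which could share reads with *TYMS* and *PSPH*, were not analysed here. One gene of the pathway list is counted in the list's totals but is not reported here. The members and lists were chosen with earlier results of these data known. The labels do not say that replicates came from separate cultures, so p-values measure the spread between these libraries.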

Additional observations from a re-analysis of the deposited data

Results flagged for a closer look

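For 4 members the effect of FHD-286 differed between the lines by the test of that difference (H82 minus H146, log2 scale, limma). The differences were 1.77 for *SHMT2*, 1.57 for *PHGDH*, 0.94 for *TYMS* and -0.52 for *MTHFD1L*. Of all 24374 genes tested, 13.3% were called with a positive and 46% with a negative difference. *SHMT2* and *PHGDH* fell in H146 and were not called in H82, *TYMS* rose in H82 and was not called in H146, and *MTHFD1L* fell in H82 and was not called in H146. The difference for *MTHFD1L* lay above the median difference of all genes, -0.75, and changed sign under the median of ratios. No library of the treated H146 group, which was the one group of 4, stood apart by Dixon's test for any of the 10 members. With 4 values this test has little power, so this does not show that no library stood apart. The groups of 3 were not tested for it.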

How the results depend on the processing

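All values here are counts of genes called or log2 fold changes. The H146 calls of *SHMT2*, *MTHFD2* and *PHGDH* and the differences between lines of *SHMT2* and *PHGDH* had an adjusted p under 0.05 in each fit run. The members called in H82 (1 lower, 1 higher) were 0 and 4 under the median of ratios, beside 32.9% and 24.2% of all genes. They were 2 and 2 under quantile normalization (28.1% and 25.6% of all genes) and 3 and 3 with library weights (53.0% and 20.1%). Without a filter they were 2 and 0 (25.9% and 6.45%), and without mitochondrially encoded genes 2 and 1 (50.5% and 10.4%). They were 2 and 2 at an adjusted p under 0.1, and 0 and 0 when a fold change of at least 2 was asked for. Shares of all genes are not given for these thresholds here or below, so these counts cannot be set against all genes. Leaving out 1 library gave 0 to 4 lower and 0 to 3 higher, beside 26.2% to 52.2% and 9.0% to 18.4% of all genes. In H146 (4 lower, 0 higher) the median of ratios gave 7 lower, beside 25.1% of all genes. Without a filter *ALDH1L2* was lost, leaving 3, beside 7.57% of all genes. For the difference between lines (1 negative, 3 positive) the median of ratios gave 0 and 7, beside 30.8% and 25.5% of all genes. Quantile normalization gave 1 and 5 (25.7% and 25.2% of all genes) and library weights 2 and 6 (53.3% and 17.1%). A fold change of at least 2 gave 0 negative. Without 1 library the negative count was 1 to 2, beside 38.6% to 48.0% of all genes.

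The labels do not say whether the replicate numbers pair the samples. Deviations of same-numbered libraries correlated at 0.027, 0.0075 and -0.038 in H82 and at -0.11, -0.065 and 0.011 in H146. Those of differently numbered libraries lay between -0.038 and 0.047 in H82 and between -0.037 and 0.11 in H146. With deviations taken from the means of so few libraries, these values cannot decide whether the samples were paired. With a replicate block the members called were 0 lower and 1 higher in H82, beside 43.6% and 11.8% of all genes. They were 5 lower and 0 higher in H146 (12.1% and 24.2% of all genes). For the difference they were 0 negative and 2 positive (42.2% and 11.7%). In the pathway list the block gave 10 higher in H146 (16 without it), and in the *ATF4* list 1 lower in H82 and 1 higher in H146.

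The pathway list in H82 (10 lower, 6 higher) gave 6 and 11 under the median of ratios, 6 lower under quantile normalization and 1 higher at a fold change of at least 2, with 3 to 10 higher when 1 library was left out. In H146 (5 lower, 16 higher) it gave 10 higher under the median of ratios, 2 lower and 8 higher at a fold change of at least 2, and 2 to 5 lower and 9 to 19 higher without 1 library. The *ATF4* list in H82 (0 lower) gave 1 lower without mitochondrially encoded genes and 6 with library weights, and 0 to 6 without 1 library. In H146 its higher count was 0 to 1 without 1 library. Shares of all genes for the scalings and left-out libraries of H82 and for the median of ratios in H146 are given above. Those at a fold change of at least 2 are not given. Without 1 H146 library, 9.58% to 19.6% of all genes were called lower and 22.6% to 39.3% higher.

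Estimates that changed sign were these. In H82 the median of ratios gave 0.15 for *PSPH*, 0.40 for *MTHFD1* and 0.063 for *MTHFD1L*. *MTHFD1* was 0.15 with library weights and -0.21 to 0.15 without 1 library. *MTHFD2* was -0.30 under quantile normalization, -0.092 without mitochondrially encoded genes, -0.35 with library weights and -0.42 to 0.32 without 1 library. In H146 the median of ratios and quantile normalization gave -0.19 and -0.051 for *MTHFD1* and -0.28 and -0.060 for *TYMS*, and the first gave -0.22 for *MTHFD1L*. Without 1 library *MTHFD1* was -0.011 to 0.20 and *TYMS* -0.0033 to 0.091. The difference between lines under the median of ratios was 0.49 for *PSAT1*, 0.59 for *MTHFD1* and 0.29 for *MTHFD1L*. For *MTHFD1* it was 0.030 under quantile normalization and -0.33 to 0.034 without 1 library, for *PSPH* -0.091 with library weights and for *ALDH1L2* -0.94 with a pseudocount of 0.1. Of the log2 ratios, *SHMT2* over *SHMT1* in H82 was -0.41 to 0.33, *MTHFD2* over *MTHFD1* in H82 -0.58 to 0.52 and *MTHFD1L* over *MTHFD1* in H146 -0.12 to 0.083 without 1 library. These ratios without 1 library were added after the data were seen. The cause was not tested in these cases. TPM values hold no depth, so how far depth limits the low values of *ALDH1L2* in H82 cannot be told.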
